A study of Homo sapiens with 4 samples.

Results

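The genes described here encode proteins of the small nuclear ribonucleoprotein particles (snRNPs) of the spliceosome. They are 10 of the 58037 rows of the deposited table, 19950 of which are protein-coding, and were taken by symbol among the protein-coding rows. SNRPB, SNRPD1, SNRPD2, SNRPD3 and SNRPE encode Sm proteins, SNRPA, SNRPC and SNRNP70 encode proteins of the U1 particle, and SNRPA1 and SNRPB2 encode proteins of the U2 particle. The group was chosen by the fold change and adjusted p of SNRPA1 in this same comparison, with other Sm, U1 and U2 protein genes set around it. All differences between knockdown and control therefore stand here as a description. The study used K562, a human erythroleukaemia line, transduced with a CRISPR lentivirus against DROSHA (2 libraries, called knockdown) or with a non-specific one (2 libraries, called control). Both groups were selected with puromycin and were at passages 25 to 30, and total RNA was sequenced. The labels do not say whether the cells of a group were 1 clone or whether its libraries came from separate cultures, so the errors cover no more than the differences among these libraries, which may be technical.

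An snRNP is built around a small nuclear RNA. Sm proteins form a ring on that RNA, which the SMN complex loads in the cytoplasm, and proteins particular to each RNA join it. The U1 particle pairs with the upstream splice site of an intron, and the U2 particle pairs with the branch point. SNRNP70, SNRPA and SNRPC sit on U1, while SNRPA1 (U2 A-prime) and SNRPB2 (U2 B-double-prime) bind the U2 RNA as a pair. DROSHA is the nuclear ribonuclease that crops primary microRNA transcripts.

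SNRPA1 is the one gene of the 10 with a high fold change, and its coding sequence has a near-identical processed copy on chromosome 2, which bears on how its reads can be placed. The first pair of stretches is the 60 bases of the SNRPA1 coding sequence that differ most from that copy, named AL078621.1 in GENCODE release 29 (hg38), from which all 6 sequences were read. They end at coding base 621, and capitals mark the bases that differ.
SNRPA1: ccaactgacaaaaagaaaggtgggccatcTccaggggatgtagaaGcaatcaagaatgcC
AL078621.1: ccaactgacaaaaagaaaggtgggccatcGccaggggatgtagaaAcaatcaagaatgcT
Even there only 3 of 60 bases differed, and over the 765 coding bases compared there were 11 differences, so 98.6% were equal. The second pair is the stretch in which the coding sequences of SNRPA and SNRPB2, whose proteins are related, come closest, at coding bases 673 to 732 of SNRPA and 502 to 561 of SNRPB2, again with differing bases in capitals.
SNRPA: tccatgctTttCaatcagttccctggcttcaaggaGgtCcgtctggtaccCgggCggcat
SNRPB2: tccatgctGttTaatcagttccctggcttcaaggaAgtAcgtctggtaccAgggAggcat
These 2 genes differed at 6 of 60 bases at their closest. The third pair compares SNRPE with its processed pseudogene SNRPEP4 on chromosome 19, at coding bases 1 to 60, where they differ most.
SNRPE: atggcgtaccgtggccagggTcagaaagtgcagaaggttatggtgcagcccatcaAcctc
SNRPEP4: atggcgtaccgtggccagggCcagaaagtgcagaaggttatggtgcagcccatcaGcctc
There were 2 differences in this stretch and 4 over the 276 coding bases compared.

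Per gene, the authors' deposited table holds the normalised reads (reads divided by a library's size factor) averaged over the 4 libraries, the log2 fold change and its adjusted p. The reads of each library were worked back from these numbers. Within the range searched, all 10 genes had 1 set of whole reads that met the deposited mean, fold change and adjusted p. SNRPA1 and 4 others had 1 set already without the adjusted p. The libraries are told apart by their size factors, 1.09 for the deeper and 0.813 for the shallower knockdown library and 1.23 for the deeper and 0.918 for the shallower control library. They cannot be tied to replicate numbers. Over the 13345 genes recovered, they held 22379144, 17418353, 26235748 and 19784482 reads in that order. Which side is the knockdown was read from DROSHA, with 2734 and 2769.9 normalised reads on that side and 6107 and 6077 on the control side, so DROSHA is no check of the labels and every direction below rests on this reading. Of markers of the line, the authors' deposited table gave the embryonic globin HBE1 156201 normalised reads and the erythroid factor GATA1 4282. Of 6 markers of other cells the B cell marker MS4A1 was at 0 and the epithelial marker EPCAM was the highest, at 2755 normalised reads on average in the authors' deposited table, and its part in the results was not tested.

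SNRPA1 was higher in the knockdown libraries, and its U2 partner SNRPB2 was not. SNRPA1 (ENSG00000131876.16, hg38 chromosome 15, bases 101281510 to 101295282, minus strand) had 1677 normalised reads in the deeper and 2284 in the shallower knockdown library, against 1202 in the deeper and 1026 in the shallower control library. Both knockdown libraries lay above both control libraries, and the knockdown libraries differed more from each other than the control libraries did. In the authors' deposited table its log2 fold change was 0.83 and its adjusted p 0.00366, and the recovered reads gave a standard error of 0.185. That is 1.78-fold, with a 95% interval of 1.38 to 2.28. The interval does not measure the gene's own spread: its log2 normalised reads had a standard deviation within sides of 0.251, larger than that error. Of the 10 genes, 1 was past an adjusted p of 0.05 on the higher side, where 0.33% of the 14231 genes tested by DESeq2 lay, and 0 on the lower side, where 0.0211% lay (0.351% on either side). No gene of the 10 other than SNRPA1 had an unadjusted p under 0.05, beside 6.8% of all tested genes. Ranked by adjusted p, SNRPA1 was number 29 of the authors' deposited table. With either knockdown library left out, the log2 ratio of SNRPA1 was 0.59 without the shallower and 1.04 without the deeper one. It was 0.95 without the deeper and 0.72 without the shallower control library. In bulk RNA, more cells with the transcript and more of it per cell cannot be told apart.

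**Figure D1:**
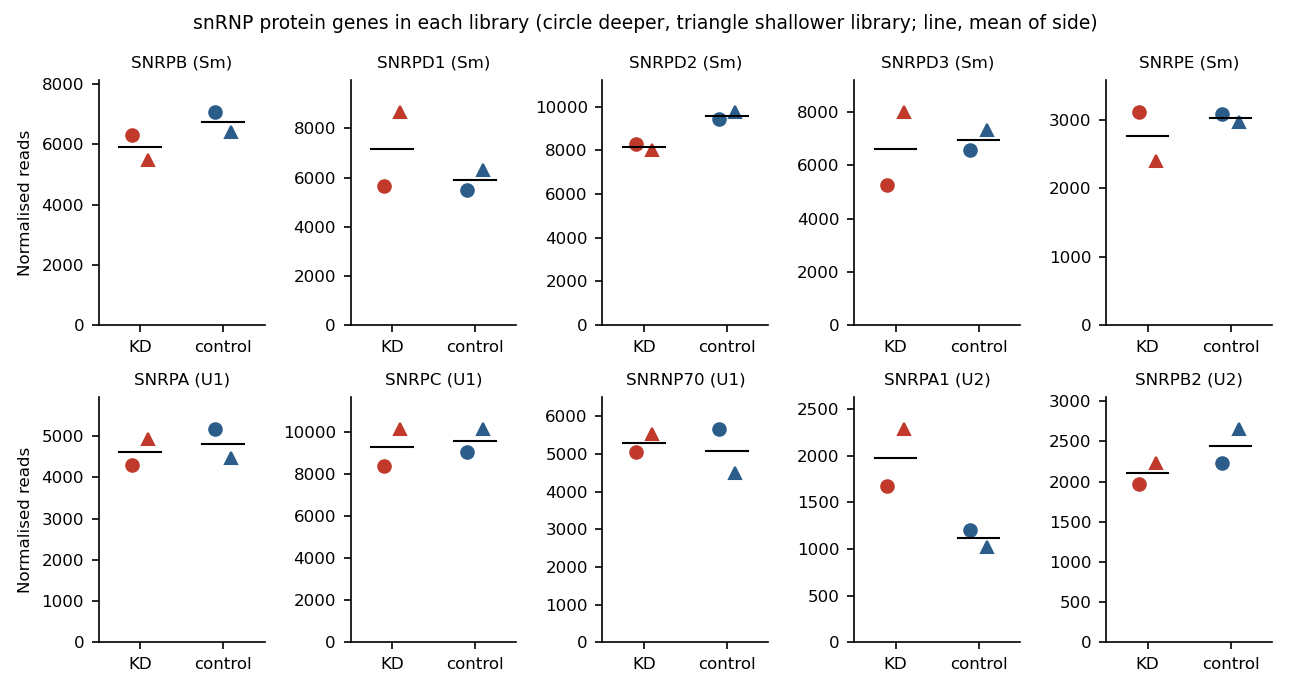
Normalised reads (vertical axis, from 0) of the 10 genes in each library, knockdown (KD, red) left and control (blue) right; circles mark the deeper and triangles the shallower library of each side, and lines the mean of the side. SNRPA1 shows the widest gap between sides relative to its level, with 1677 and 2284 against 1202 and 1026 normalised reads, and SNRPD1 and SNRPD3 the widest gaps between the knockdown libraries.

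SNRPB2 (ENSG00000125870.10, hg38 chromosome 20, bases 16729961 to 16742563, plus strand) had 1972 and 2234 normalised reads in the deeper and shallower knockdown libraries, against 2237 and 2652 in the deeper and shallower control libraries. The knockdown libraries were lower, by a margin of under 3 normalised reads at the nearest pair. Its log2 fold change of -0.22 (the authors' deposited table, where its adjusted p was 0.858) had a standard error of 0.158. Per kilobase of the longest coding transcript, the ratio of SNRPA1 to SNRPB2 was 1.98 and 2.38 in the deeper and shallower knockdown libraries, against 1.25 and 0.899 in the deeper and shallower control libraries. The ratio separates the sides, as SNRPA1 alone does. Like the share given next, it is built on the gene by which the group was chosen, so it adds no support. SNRPA1 made up 4.2% and 5.2% of the summed level per kilobase of the 10 genes in the knockdown libraries, against 2.7% and 2.3% in the control libraries.

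**Figure D2:**
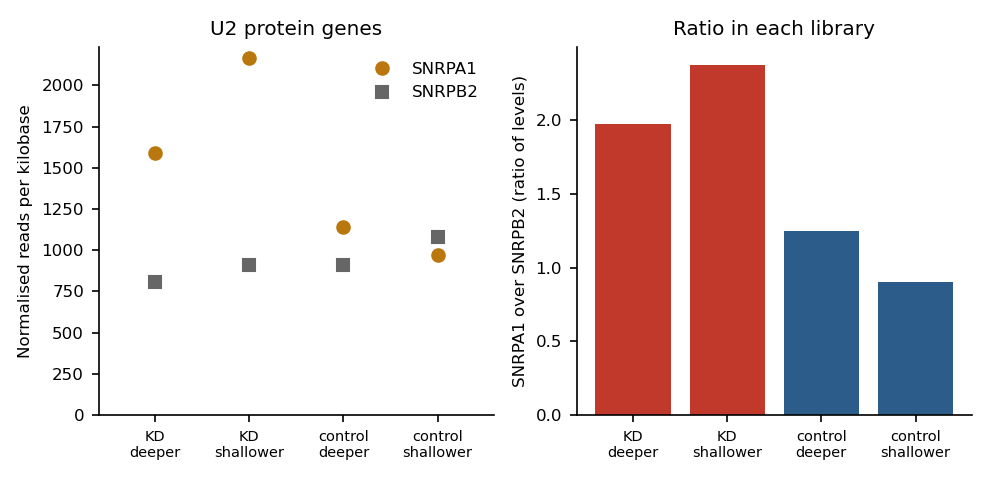
Left, normalised reads per kilobase of SNRPA1 (circles) and SNRPB2 (squares) in the 4 libraries; right, the ratio of SNRPA1 to SNRPB2, with knockdown (KD) bars in red and control bars in blue. The ratio is 1.98 and 2.38 in the knockdown libraries, against 1.25 and 0.899 in the control libraries.

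None of the 5 Sm genes was past the threshold of DESeq2, beside 0.351% of all tested genes. Of the 5, 4 had a fold change below 0. SNRPD2 (ENSG00000125743.10, chromosome 19, 45687454 to 45692569, minus strand) encodes the Sm protein that contacts SmD1 in the ring. It had 8283 and 8004 normalised reads in the deeper and shallower knockdown libraries, against 9424 and 9757 in the control libraries in the same order. The sides did not overlap, and libraries of a side were close to each other. Its log2 fold change was -0.24 (the authors' deposited table, where its adjusted p was 0.756), with a standard error of 0.131. SNRPB (ENSG00000125835.18, chromosome 20, 2461634 to 2470853, minus strand) encodes SmB and SmB′ by alternative splicing. It had 6304 and 5500.5 normalised reads in the knockdown libraries, against 7079 and 6428 in the control libraries. Here too the knockdown libraries lay below both control libraries, the nearest pair being close. The log2 fold change was -0.19 (the authors' deposited table, where its adjusted p was 0.865), with a standard error of 0.144.

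SNRPD1 (ENSG00000167088.10, chromosome 18, 21612267 to 21633524, plus strand) stood at 0.28 on the log2 scale (the authors' deposited table, where its adjusted p was 0.842), the second highest of the 10, and the value rested on 1 library. It had 5656 normalised reads in the deeper and 8663 in the shallower knockdown library, against 5506 and 6316 in the control libraries. Without the shallower knockdown library its log2 ratio was -0.06. SNRPD3 (ENSG00000100028.11, chromosome 22, 24555503 to 24609980, plus strand), whose protein pairs with SmB, showed the same split. It had 5247 and 7995 normalised reads in the knockdown libraries, against 6550.4 and 7304 in the control libraries. The knockdown libraries lay on either side of the controls. Its log2 fold change was -0.07 (the authors' deposited table, where its adjusted p was 0.983), and without the shallower knockdown library the log2 ratio was -0.40, against 0.21 without the deeper one. SNRPE (ENSG00000182004.12, chromosome 1, 203861603 to 203870550, plus strand) went the other way, with 3117 normalised reads in the deeper and 2407 in the shallower knockdown library, against 3090.3 and 2975 in the control libraries. Its log2 fold change of -0.13 (the authors' deposited table, where its adjusted p was 0.943) became a log2 ratio of 0.04 without the shallower knockdown library and -0.33 without the deeper one. Summed per kilobase of the longest coding transcript, the 5 Sm genes had 22094 and 22504 normalised reads in the knockdown libraries, against 24711 and 24987 in the control libraries. That gap depends on the length used. SNRPD1, the Sm gene above 0, counts little in the sum, with 1331 per kilobase of its 4909 bases. With the median length of its coding transcripts, 723 bases, it had 9039.

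The 3 genes of U1 proteins overlapped between the sides. Over all recovered genes, the knockdown libraries lay above both control libraries in 19.0% and below both in 22.4%, and the sides of the rest overlapped. SNRNP70 (ENSG00000104852.14, chromosome 19, 49085419 to 49108605, plus strand) encodes the protein on the first stem loop of the U1 RNA. It had 5058 and 5518 normalised reads in the deeper and shallower knockdown libraries, against 5651 and 4488 in the control libraries. SNRPA (ENSG00000077312.8, chromosome 19, 40750637 to 40765389, plus strand) encodes the protein on another stem loop of that RNA. It had 4296 and 4924 normalised reads in the knockdown libraries, against 5170.3 and 4476 in the control libraries. SNRPC (ENSG00000124562.9, chromosome 6, 34757406 to 34773794, plus strand) encodes a zinc finger protein that steadies the pairing of U1 with the splice site. It had 8414 and 10143 normalised reads in the knockdown libraries, against 9071 and 10130.2 in the control libraries. The knockdown libraries lay within the range of the controls for SNRNP70 and on either side of it for SNRPC, and for SNRPA the libraries of the sides alternated. The log2 fold changes were 0.06 for SNRNP70, -0.07 for SNRPA and -0.05 for SNRPC in the authors' deposited table, with standard errors of 0.156, 0.150 and 0.149. The 95% intervals of the fold ran from 0.844 to 1.29 for SNRNP70, from 0.780 to 1.17 for SNRPA and from 0.789 to 1.18 for SNRPC. The intervals hold no change as well as changes of either sign. They are no limits of detection, and with 2 libraries a side larger changes can also go uncalled.

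**Figure D3:**
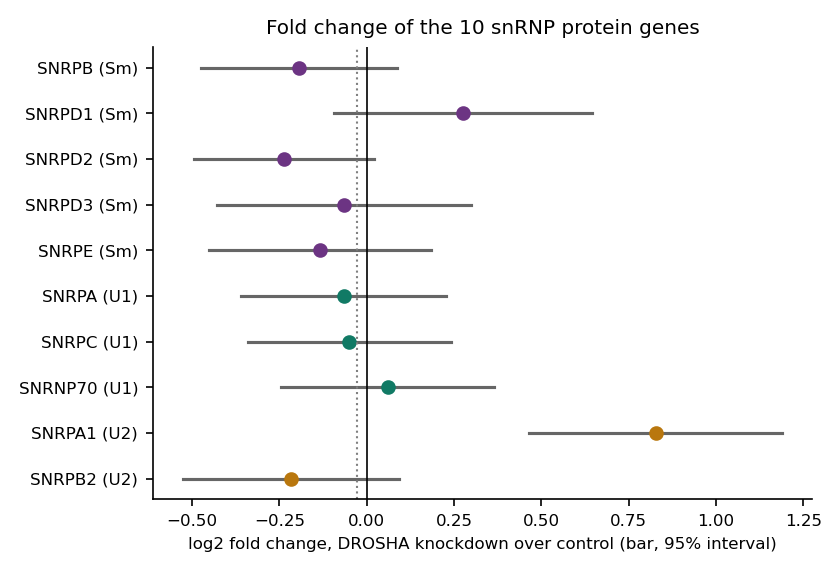
Authors' log2 fold change, knockdown over control (horizontal axis), of the 10 genes, coloured by particle, with 95% intervals from the recovered reads; the dotted line is the median of all tested genes. SNRPA1 at 0.83 lies apart from the other 9 genes, which range from -0.24 to 0.28.

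Over the 10 genes, 3 had a fold change above 0 and 7 below, with a median log2 fold change of -0.07, beside a median of -0.03 over all tested genes, of which 45.1% lay above 0. Both knockdown libraries were above both control libraries in 1 gene, SNRPA1, beside 19.0% of the 13345 recovered genes. Both were below in 3 genes (SNRPB, SNRPB2 and SNRPD2), beside 22.4%. In the other 6 the sides overlapped. Leaving out 1 library changed the sign of the log2 ratio in those 6 genes. In the 4 others it could not, since their sides did not overlap.

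The knockdown libraries differed from each other in several of the 10 genes. The shallower over the deeper knockdown library was 1.53-fold for SNRPD1, 1.52-fold for SNRPD3 and 1.36-fold for SNRPA1, while it was 0.772-fold for SNRPE. Over the 4652 recovered genes at least as abundant as SNRPA1 the median was 1.04-fold and the range from the lowest to the highest 5% ran from 0.840 to 1.37. SNRPD1 and SNRPD3 lay above that range, with 1.96% of these genes above SNRPD3, SNRPE lay below it, and SNRPA1 lay just within it. The part of this spread in the fold changes was not tested beyond the values given with a library left out.

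**Figure D4:**
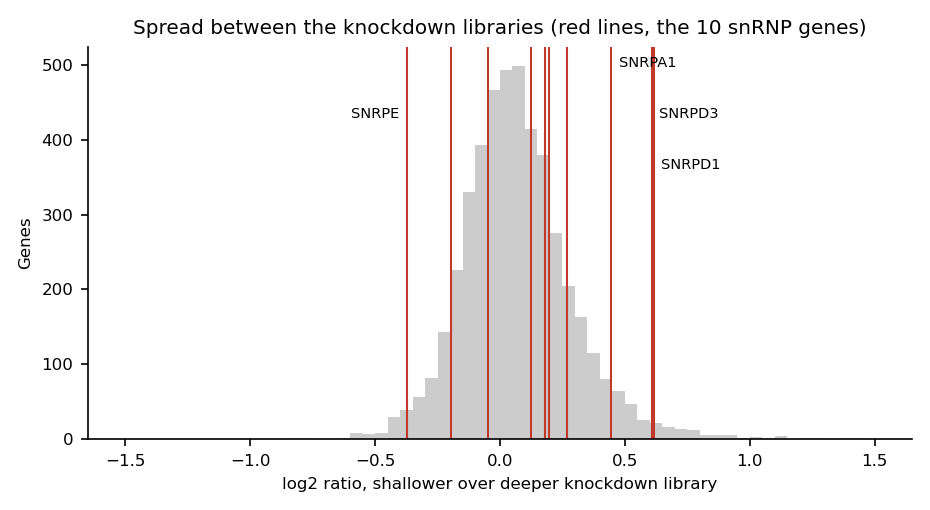
Distribution over 4652 recovered genes (vertical axis, number of genes) of the log2 ratio of the shallower over the deeper knockdown library, with red lines at the 10 snRNP genes. SNRPD1 and SNRPD3, at 1.53-fold and 1.52-fold, lie at the right edge.

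The 10 genes spanned a wide range of levels. Mean normalised reads ran from 1547 for SNRPA1, above 54.9% of tested coding genes, to 9439 for SNRPC, above 94.4% of them, in the authors' deposited table. Per kilobase of the longest annotated coding transcript, SNRPD2 had a level of 9841 and SNRPC of 8956 normalised reads. SNRPB followed at 5484, SNRPD3 at 3842, SNRNP70 at 3231, SNRPE at 3076 and SNRPA at 2910 normalised reads per kilobase. SNRPA1 at 1467, SNRPD1 at 1331 and SNRPB2 at 927 normalised reads per kilobase were the lowest of the 10. Across the 4 libraries the ranges of SNRPD2 and SNRPC overlapped, as did those of each neighbouring pair from SNRPD3 to SNRPA and of SNRPA1 and SNRPD1. The order depends on the length used, since the longest transcript of SNRPD1 has 4909 bases and the median of its coding transcripts 723. With the median length SNRPD1 had 9039 normalised reads per kilobase, next after SNRPD2 and SNRPC, and SNRPA1 and SNRPB2 had the lowest levels. Those 2 were also lowest over the union of all exons, with SNRPA1 last, at 422 normalised reads per kilobase.

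Reads of SNRPA1 could be confused with those of its processed copies. Of the 1006 stretches of 50 bases in its longest coding transcript, 41.5% occurred in another annotated transcript, the largest share of the 10 genes. These were the copy on chromosome 2 (from 113657908 to 113658675 on the plus strand, with 341 stretches) and one on chromosome 22 named AC002056.1 (315 stretches). The copy on chromosome 2 had 49 and 75 normalised reads in the deeper and shallower knockdown libraries, against 36 and 33 in the control libraries. It thus lay in the same order across the libraries as SNRPA1 did, and its log2 fold change was 0.85 (the authors' deposited table, where its adjusted p was 0.780). Both copies together had 3.87% of the mean of SNRPA1, and whether their reads came from the copies or from SNRPA1 was not tested. The share was 21.2% for SNRPE, mostly through SNRPEP4, and 18.0% for SNRPD3, mostly through GUCD1, which overlaps it on the opposite strand. Stretches that match as the reverse complement, as such an overlap gives, count in these shares. SNRPB shared 9.50% with AL049650.1, a coding locus that overlaps it on the same strand at 1817 normalised reads on average in the authors' deposited table. SNRNP70 shared 0 stretches. Of 30 rows named as pseudogenes of the 10 genes, 23 had a mean of 0, and SNRPEP4 had the highest, 39.9 normalised reads in the authors' deposited table, or 1.38% of SNRPE. In all, 8 annotated genes overlapped 5 of the 10, and 0 microRNA or small nucleolar RNA genes lay within them.

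The wider snRNP machinery showed no call by DESeq2. Of 74 other genes in 7 lists, all tested, 0 were higher and 0 lower at an adjusted p under 0.05. Over all tested genes 0.33% were higher and 0.0211% lower, so few calls would be met in any 74 genes. An unadjusted p under 0.05 was found for 5 of the 74, beside 6.8% of all tested genes. Of the 5, 2 were above 0 and 3 below. The median log2 fold change of the 74 was -0.07, 25 lay above 0 and 49 below. Of the 66 with recovered reads, both knockdown libraries lay above both control libraries in 6 and below both in 24, which is 9.09% and 36.4% of them, beside 19.0% and 22.4% of all recovered genes.

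Of 3 other Sm core genes, none had sides that stood apart (0 of 3), beside 19.0% above and 22.4% below over all recovered genes. SNRPF, the highest of them, had 2454 normalised reads in the deeper and 4657 in the shallower knockdown library, against 2978 and 2743 in the control libraries, and a log2 fold change of 0.31 (the authors' deposited table, where its adjusted p was 0.957). SNRPG, the lowest, stood at -0.10 in the authors' deposited table. The U2 list of SF3A, SF3B and U2AF genes, whose proteins select the branch point and the downstream splice site, had 4 of 15 above 0 and a median of -0.12. It ran from SF3B6 at -0.32 to U2AF1 at 0.64 in the authors' deposited table. U2AF1, at 59.4 normalised reads on average, has a near-identical annotated copy, U2AF1L5, so its value is uncertain. The tri-snRNP list had 3 of 16 above 0 and a median of -0.14, from the helicase gene SNRNP200 at 0.18 to PRPF4 at -0.33 in the authors' deposited table.

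LSM10, which replaces an Sm protein in the U7 particle of histone mRNA processing, came closest to a call. It had 595 and 738 normalised reads in the deeper and shallower knockdown libraries, against 450.3 and 303 in the control libraries. Its log2 fold change was 0.82 (the authors' deposited table, where its adjusted p was 0.0858), with a standard error of 0.230. The sides did not overlap, as for SNRPA1. The other LSM genes lay lower, and the list of 10 had 3 above 0, a median of -0.16 and its lowest value at LSM6, -0.28 in the authors' deposited table. LSM11, the other Sm-like protein particular to U7 and chosen here after its value was seen, stood at -0.14 (the authors' deposited table, where its adjusted p was 0.944).

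The minor spliceosome list had 5 of 8 above 0 and a median of 0.03, from ZRSR2 at 0.67 (adjusted p = 0.479) to ZMAT5 at -0.42 (the authors' deposited table, where its adjusted p was 0.687). The SMN complex and methylosome list, which assembles the Sm ring, had 5 of 14 above 0 and a median of -0.07, from SMN2 at 0.35 to GEMIN6 at -0.29 in the authors' deposited table. SMN2 and SMN1 are near-identical copies, so the value of either is uncertain. In the list of snRNA transport and cap maturation, 4 of 8 lay above 0 with a median of -0.01, from PHAX, the export adaptor, at 0.17 to SNUPN, the import adaptor, at -0.08 in the authors' deposited table.

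**Figure D5:**
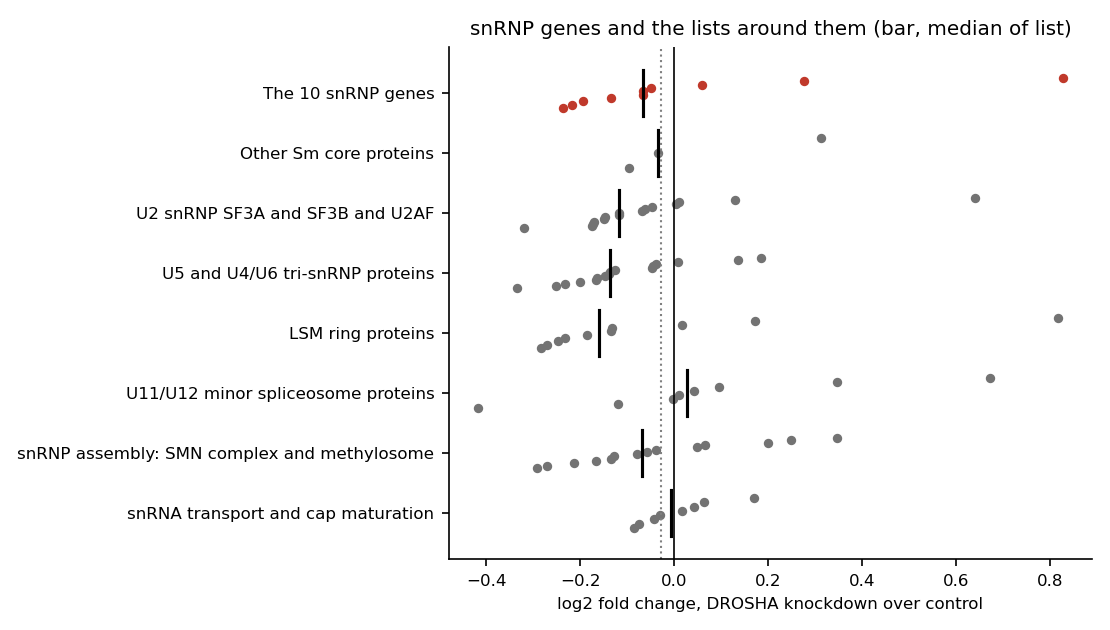
Authors' log2 fold change, knockdown over control (horizontal axis), of each gene (points) in the 10 snRNP genes (red) and the 7 lists around them (grey); black bars are list medians and the dotted line the median of all tested genes. SNRPA1 at 0.83 and LSM10 at 0.82 are the farthest points to the right.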

How the data were processed

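Total RNA of whole cell lysates went into stranded libraries (Illumina TruSeq Stranded Total RNA), per the labels' protocols. The submitters' processing notes name STAR 2.6.0a, Bowtie2 2.3.4.1, DESeq2 1.24.0 and hg38. How genes were counted, with which strand setting and annotation, and how multi-mapping reads were treated is not given in the sources used here. Overlapping and near-identical genes can therefore share reads. Per the file headers, the authors' table holds 3 values used here. These are the deposited signal (normalised read count averaged over the 4 libraries), the authors' log2 fold change from DESeq2 and the authors' adjusted p-value. It has 0 columns of single libraries. Another deposited log2 column, whose assay is not stated, was not used here.

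The 4 smallest means belong to genes with 1 read in 1 library and give each library's size factor. Whole reads of the 4 libraries were then sought for the 13618 genes with an adjusted p and a mean up to 10000. Only sets whose log2 ratio of side means lay near the deposited fold change were searched, in a narrower range for abundant genes. The reads had to give the deposited mean to its 15 significant digits and the deposited fold change under a negative binomial fit. Where several sets met both, as for 5 of the 10 members, the set whose Wald p fell in the range allowed by the adjusted p (within 1% in z) was kept. A single set remained for 13345 genes (98.0%), 240 had none and 33 several. The settings of this recovery were chosen while looking at the same table. In 564 kept genes with an untied adjusted p and 1 set found without it, the median gap in z was 0.00874%. This gap is in part fixed by the 1% limit, since 12946 genes had 1 set without the adjusted p and 12708 of them were kept. Standard errors and 95% intervals come from these reads and the fitted dispersion, which was solved for so that the deposited fold change was met. They rest on 2 libraries a side and do not measure a gene's own spread between libraries. The standard deviation of log2 normalised reads within sides was 0.323 for SNRPD1, 0.314 for SNRPD3 and 0.251 for SNRPA1. Their standard errors were smaller, 0.188, 0.186 and 0.185. The standard deviation was also the larger of the 2 for SNRPE, SNRNP70 and SNRPC, and the smaller for SNRPB, SNRPA and SNRPB2. For SNRPD2 the standard deviation was 0.035 and the standard error larger, 0.131.

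Coordinates, transcript lengths and sequences came from GENCODE release 29 (hg38), whose gene IDs matched those of 10 of 10 members with their version. Stretches of 50 bases of each longest coding transcript were looked up in all other annotated transcripts, as they stand and as the reverse complement. Named genes were the members, DROSHA, the highest and the lowest gene of each list, the most abundant named pseudogene and overlapping genes. The copies AL078621.1 and AC002056.1, the gene LSM11 and the printed sequence windows were chosen after values had been seen. The members and lists were chosen with earlier results of these data known. The scripts were tested on simulated data and run in Python 3.11.15 with pandas 2.3.3, numpy 2.4.6 and scipy 1.17.1.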

Additional observations from a re-analysis of the deposited data

How the results depend on the processing

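SNRPA1 had a log2 value of 0.59 to 1.04 over the 8 settings run. Its direction could not change with 1 library left out, since its sides did not overlap. The other settings only re-centred the value or recomputed the same ratio. Since the group was chosen by the fold change and adjusted p of SNRPA1, its calls at other thresholds restate those values and show no stability. With Bonferroni adjustment 0 of the 10 genes were called, and 25 of all genes, against 50. Adjusted over protein-coding genes, 33 were called, by construction only coding ones. Of the other 74 snRNP genes 1 was called at an adjusted p under 0.1, LSM10, beside 65 of all 14231 tested genes. The order by level per kilobase kept 3 of 10 places over the union of exons and 3 with the median transcript length. Of 80 values recomputed for single genes, 76 moved by less than the spread between libraries of a side. The others were SNRPD1 and SNRPD3 without the shallower knockdown library, SNRPE without the deeper one and SNRPD2 re-centred on coding genes, at -0.19. For SNRPD2 that spread was only 0.035. The count of 76 shows no stability, because leaving out 1 library moves a value by an amount set by the same spread. Leaving out 1 library changed the sign in 6 of the 10 genes. The median of the 10 genes ran from -0.13 to 0.05 with 1 library left out.

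No paired analysis was possible because the libraries cannot be tied to replicate numbers. Reads of genes with a mean above 10000 were not recovered. Nor were those of the 240 genes with no set and the 33 with several, among them EFTUD2 at a mean of 8997. The 2 libraries a side limit the precision of every fold change.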
